A study of Heterocephalus glaber and Mus musculus with 9 samples.

Results

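The genes described here are 9 genes of the T cell receptor complex, its co-receptors and first kinases, and of T cell identity, namely Cd3d, Cd3e, Cd3g, Cd4, Cd28, Lck, Zap70, Tcf7 and Bcl11b. They were chosen by symbol, and all 9 were found among the 12946 genes of the table of normalized counts. Spleen RNA was sequenced from 3 mice, 3 naked mole-rats with a small spleen (ssNM-R) and 3 naked mole-rats with an enlarged spleen (lsNM-R), with 1 library per animal. The mice were wild-type males of the strain C57Bl/6N aged 2 months. The ssNM-Rs were males, numbered 2, 3 and 6, of 30, 26 and 23 months, and the lsNM-Rs were numbered 1, 4 and 5, of 24, 29 and 23 months, with lsNM-R 4 a female and the others males. All animals were healthy. Species, age, genome and gene models all differ between NM-Rs and mice, and their parts in any difference between the species cannot be told apart. The table holds reads per gene divided by a size factor for each library, from which the whole reads were recovered. The mouse libraries held between 10441982 and 11180912 reads, the ssNM-R libraries between 7815326 and 18219644, and the lsNM-R libraries between 8327759 and 18387599.

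The T cell receptor recognises peptides on MHC molecules but has no signalling part of its own, and it is carried to the cell surface by the CD3 chains, whose cytoplasmic tails hold the motifs that the kinase Lck phosphorylates. Phosphorylated CD3 and zeta chains recruit the kinase Zap70. CD4 binds MHC class II and brings Lck to the receptor, and CD28 gives the second signal when it binds CD80 or CD86. Tcf7 codes for TCF-1 and Bcl11b for a zinc finger protein, transcription factors that set up and keep the T cell programme. In the mouse spleen, T cells lie mainly in the sheaths around the arterioles of the white pulp.

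In NM-R spleens all 9 genes were lower than in those of mice, but by very different amounts. The CD3 chains and Cd4 were between 1.386 and 1.602 times higher in mice as ratios of group means, Zap70, Tcf7, Bcl11b and Lck between 3.76 and 4.57 times, and Cd28 was 36.2 times higher. All 9 passed the threshold (limma on log2 of the normalized count plus 1, adjusted p under 0.05 over all genes), against 38.8% of all 12946 genes that were called lower in NM-R. Their median log2 fold change was -1.98, with a range from -5.25 to -0.48, while the median of all genes was 0.0097. For 7 of the 9 genes every NM-R spleen lay below every mouse spleen, which held for 36.2% of all genes, and the exceptions were Cd3e and Cd3g. In whole spleens, fewer T cells and less RNA per T cell cannot be told apart.

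**Figure D1:**
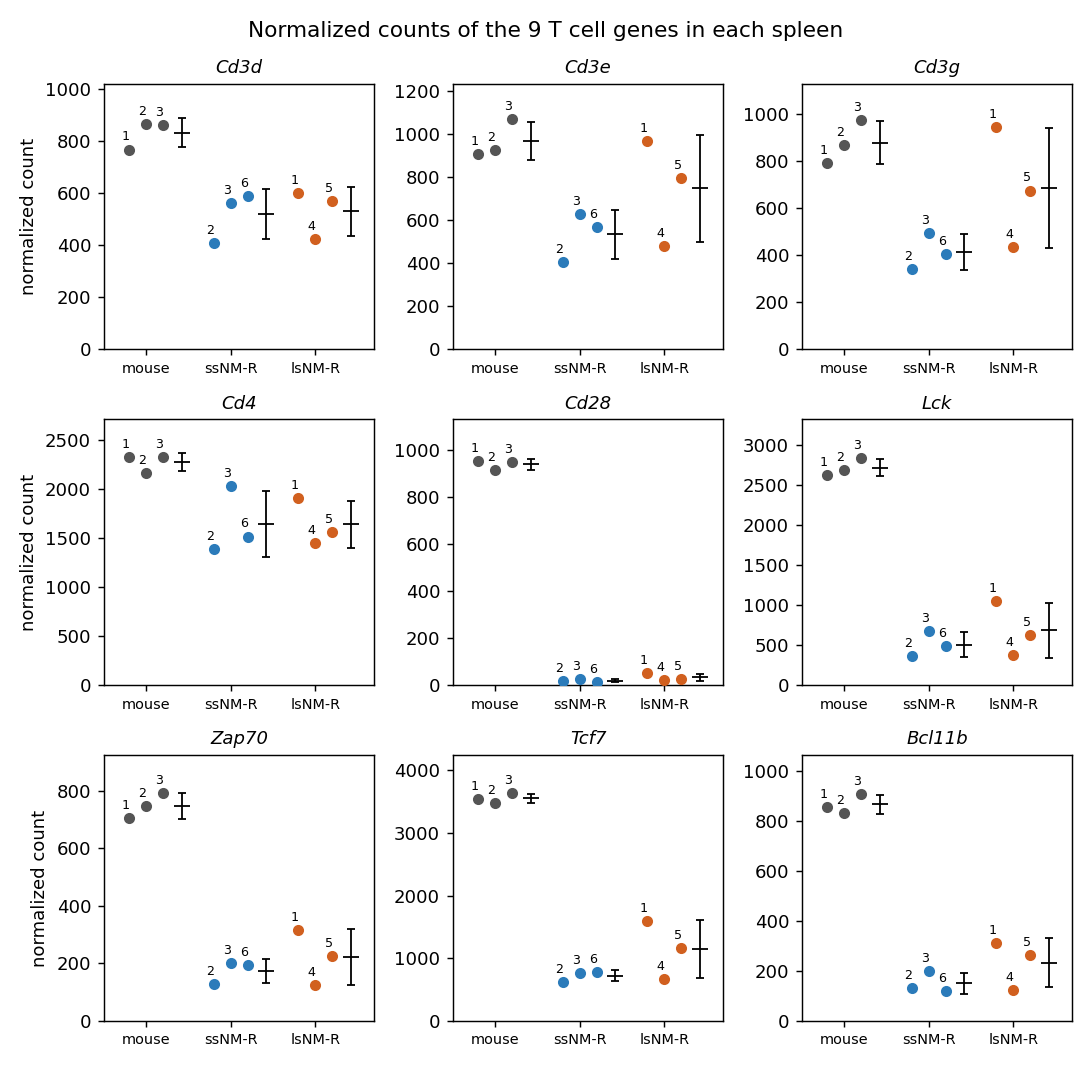
Normalized counts (vertical axis, starting at 0) of the 9 genes in each of the 9 spleens, with the number of the animal above its point and the mean ± SD of each group (n = 3) as a bar beside it. Cd28 lies between 14.5 and 50.9 in NM-Rs and between 912 and 952 in the mice, and lsNM-R 1 reaches the mouse range for Cd3e and Cd3g.

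Cd3d, Cd3e and Cd3g code for the delta, epsilon and gamma chains of CD3. They are neighbours in the mouse genome, on chromosome 9 of mm9 from 44789876 to 44795135, from 44806826 to 44817673 and from 44777655 to 44788514. Cd3g and Cd3d are read in opposite directions away from an interval of 1361 bases, and 11690 bases without an annotated gene lie between Cd3d and Cd3e. The 200 bases before the annotated start of each gene in mm9 are shown 5′ to 3′ on the strand of the gene. Capitals mark the E-box CANNTG, the binding motif of E proteins such as that of Tcf3, and the TCF/LEF cores CTTTGAA and CTTTGAT, the kind of motif that TCF-1 binds, searched on both strands. The search was chosen after the values were seen.
Cd3d, chr9:44789676-44789875, plus strand: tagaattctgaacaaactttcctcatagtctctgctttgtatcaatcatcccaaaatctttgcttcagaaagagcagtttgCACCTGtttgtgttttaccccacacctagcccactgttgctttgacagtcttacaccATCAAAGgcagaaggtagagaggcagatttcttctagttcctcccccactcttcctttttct
Cd3e, chr9:44817674-44817873, minus strand: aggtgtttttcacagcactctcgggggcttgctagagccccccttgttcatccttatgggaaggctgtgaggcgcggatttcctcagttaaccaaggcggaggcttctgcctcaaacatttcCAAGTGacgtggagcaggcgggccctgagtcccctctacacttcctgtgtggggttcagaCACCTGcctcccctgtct
Cd3g, chr9:44788515-44788714, minus strand: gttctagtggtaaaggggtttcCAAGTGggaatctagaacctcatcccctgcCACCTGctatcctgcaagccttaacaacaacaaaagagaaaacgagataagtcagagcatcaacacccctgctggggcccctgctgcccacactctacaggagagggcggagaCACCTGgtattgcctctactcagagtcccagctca
An E-box was found once before Cd3d, at 2 places before Cd3e and at 3 before Cd3g, and in 54.8% of the 22380 windows of the same length before protein-coding genes. A TCF/LEF core was found before Cd3d and not before Cd3e or Cd3g, and in 5.42% of all windows. Over the 9 genes, 6 windows held an E-box and 2, those of Cd3d and Tcf7, a TCF/LEF core. The shorter core GGAA of ETS factors, not marked here, was in 9 of 9 windows and in 88.5% of all. None of the 9 windows overlapped an annotated exon. The sequences are those of the mouse, and NM-R sequences were not used here.

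Cd3d had 769, 866 and 864 normalized counts in mice 1, 2 and 3, compared to 410.2, 565 and 589 in ssNM-Rs 2, 3 and 6 and 602, 425 and 569 in lsNM-Rs 1, 4 and 5. The groups of the species did not overlap, and the cohorts were alike. The log2 fold change of NM-R with mouse was -0.68 (± 0.15 SE, limma adjusted p = 0.00188).

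For Cd3e, the counts were 907, 925 and 1069 in the mice, 405, 626 and 569 in the ssNM-Rs and 969, 478 and 795 in the lsNM-Rs. The spleen of lsNM-R 1 exceeded those of mice 1 and 2, whereas all 3 ssNM-Rs lay below every mouse. The log2 fold change was -0.88 in ssNM-R (± 0.25 SE, limma adjusted p = 0.00881) and -0.43 in lsNM-R (± 0.25 SE, limma adjusted p = 0.143), so Cd3e passed the threshold in ssNM-R with mouse and not in lsNM-R with mouse. Without lsNM-R 1 the latter became -0.64 (limma adjusted p = 0.0402). Over both cohorts, its call was lost without mouse 3 (log2 fold change -0.58, limma adjusted p = 0.0757) and with a term for the depth class of the libraries (-0.53, limma adjusted p = 0.0823).

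Cd3g had 789.7, 869 and 975 normalized counts in the mice, 340.5, 492 and 403 in the ssNM-Rs and 945, 433 and 674 in the lsNM-Rs. It followed Cd3e, with lsNM-R 1 inside the mouse range and the ssNM-Rs below it. The log2 fold change was -1.10 in ssNM-R (± 0.25 SE, limma adjusted p = 0.00266) and -0.43 in lsNM-R (± 0.25 SE, limma adjusted p = 0.150), and without lsNM-R 1 the latter was -0.69 (limma adjusted p = 0.0185). With the depth class as a term, the difference over both cohorts was -0.56 (limma adjusted p = 0.0539).

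Cd4, on chromosome 6 of mm9 from 124814710 to 124838239, codes for the co-receptor of helper T cells and is also carried by some dendritic cells and macrophages. Over both cohorts it had the smallest log2 fold change of the 9 genes against mice, though in lsNM-R those of Cd3e and Cd3g were closer to 0. Cd4 had 2328, 2165 and 2324 normalized counts in the mice, 1383, 2025 and 1515 in the ssNM-Rs and 1910, 1449 and 1556 in the lsNM-Rs. Every NM-R lay below every mouse, and the highest NM-R was ssNM-R 3. The log2 fold change was -0.49 in ssNM-R (± 0.15 SE, limma adjusted p = 0.0145) and -0.48 in lsNM-R (± 0.15 SE, limma adjusted p = 0.0158). The first was lost without ssNM-R 2 (-0.37, limma adjusted p = 0.0570), and the second without lsNM-R 4 (-0.40, limma adjusted p = 0.0611) and with the depth class as a term (-0.32, limma adjusted p = 0.118).

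Cd28, on chromosome 1 of mm9 from 60773644 to 60830203, codes for the main costimulatory receptor of T cells. Mice had 952, 912 and 949 normalized counts, whereas ssNM-Rs had 15.04, 27.02 and 14.53 and lsNM-Rs 50.9, 21.2 and 27.0. These rest on 11 to 43 reads per NM-R library and 839 to 949 reads per mouse library, so that Cd28 was detected in every NM-R spleen, above the limit of 3 reads that a count of 0 allows. The mean of mice exceeded the ssNM-R mean 49.7 times and the lsNM-R mean 28.4 times. The log2 fold changes were -5.62 in ssNM-R and -4.88 in lsNM-R (± 0.33 SE for each, limma adjusted p = 2.75e-07 and 6.96e-07).

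Lck and Zap70 code for the kinases that start signalling from the receptor, and lie on chromosome 4 of mm9 from 129225588 to 129250885 and on chromosome 1 from 36818695 to 36839663. Lck had 2621, 2686 and 2836 normalized counts in the mice, 362, 671 and 483 in the ssNM-Rs and 1052, 375 and 623 in the lsNM-Rs. The species were far apart, and lsNM-R 1 was the highest NM-R (log2 fold change of NM-R with mouse -2.29, ± 0.29 SE, limma adjusted p = 3.94e-05). Zap70 had 704, 747 and 792 normalized counts in the mice, 127, 199.7 and 196 in the ssNM-Rs and 318, 125 and 226 in the lsNM-Rs, with the same spleen highest. Its log2 fold change was -1.98 (± 0.26 SE, limma adjusted p = 6.19e-05).

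Tcf7 lies on chromosome 11 of mm9 from 52065873 to 52096681 and Bcl11b on chromosome 12 from 109148613 to 109241812. For Tcf7 the counts were 3537, 3481 and 3635 in the mice, 617, 770.2 and 781 in the ssNM-Rs and 1597, 667 and 1165 in the lsNM-Rs (log2 fold change of NM-R with mouse -2.01, ± 0.22 SE, limma adjusted p = 1.62e-05). Bcl11b had 857, 834 and 909 in the mice, 131, 199.7 and 121 in the ssNM-Rs and 312, 122 and 263 in the lsNM-Rs (log2 fold change -2.28, ± 0.28 SE, limma adjusted p = 3.14e-05). For both factors the NM-R spleens did not reach the mouse range, and lsNM-R 1 was again the highest of them. In mm9, 2 annotated genes, A630014C17Rik and Gm16953, overlap Tcf7. Whether the counting took the strand into account is not given, so that reads of overlapping genes may not have been told apart.

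Levels of different genes were compared in mice alone, per kilobase of annotated exon, because NM-R gene lengths were not used here. Tcf7 was the highest with 1273 ± 28.0 normalized counts per kilobase (SD, n = 3), followed by Lck with 927 ± 37.6. Cd3g (820.4 ± 87.1), Cd3e (673 ± 61.6) and Cd3d (629.6 ± 42.2) came next, and the ranges of Lck and Cd3g, of Cd3g and Cd3e and of Cd3e and Cd3d overlapped. The level was 564 ± 23.0 for Cd4, 321 ± 18.8 for Zap70, 153 ± 3.7 for Cd28 and 107 ± 4.8 for Bcl11b, and these ranges lay apart from each other.

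The cohorts were compared with mice one by one, and the 2 comparisons share the same mice. In ssNM-R 9 of 9 genes were called lower (37.5% of all genes), with a median log2 fold change of -2.12. In lsNM-R 7 of 9 were called lower (37.0% of all genes), with a median of -1.72, and Cd3e and Cd3g were not called. Without lsNM-R 1 all 9 passed in lsNM-R with mouse (4614 of all genes called lower, against 4788 in the main fit). The number was 6 without lsNM-R 4 (4527 of all genes) and with the depth class as a term (4515). With the numbers of the animals as a block, a number held by 1 animal alone takes that animal out. That fit set lsNM-R 1 against mouse 1 only, and the log2 fold changes of Cd3e and Cd3g changed sign.

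Between the cohorts, 0 of 9 genes passed the threshold in limma (0% of all genes), with 2 at an unadjusted limma p under 0.05 (8.79% of all genes). On the recovered reads edgeR called 0 of 9 (0% of all genes) and DESeq2 0 of 9 (57 of all genes, 0.440%), and each had 3 of 9 at an unadjusted p under 0.05, against 8.54% of all genes in edgeR and 8.63% in DESeq2. In limma the log2 fold changes of all 9 were above 0, with a median of 0.45 and a range from 0.0074 to 0.73, whereas the median of all genes was 0.0054. The lowest, that of Cd4, has no clear sign, being -0.01183 in edgeR, -0.002653 in DESeq2 and -0.003008 with the 6 NM-Rs alone, and the group means were close (1638 in lsNM-R, 1641 in ssNM-R). The 2 genes with an unadjusted limma p under 0.05 were Cd3g (log2 fold change 0.67, ± 0.25 SE, limma adjusted p = 0.521) and Tcf7 (0.58, ± 0.26 SE, limma adjusted p = 0.567). For 4 of the 9 genes the direction rested on single spleens, whereas Cd3e, Cd3g, Cd28, Tcf7 and Bcl11b stayed above 0 with any 1 spleen left out. Without lsNM-R 1, Cd3d, Cd4, Lck and Zap70 were lower in lsNM-R. An unadjusted limma p under 0.05 was then reached by 0 of the 9 genes (9.86% of all genes). That number was also 0 without ssNM-R 2 (9.96% of all genes), without lsNM-R 5 (8.04%), with only the groups compared (7.50%) and with the 6 NM-Rs alone (7.76%). It was 4 with the depth class as a term (12.9%). Without the female lsNM-R 4 it was 7 of 9 (7.42% of all genes). In each of these settings 0 of the 9 passed the adjusted threshold. In all 9 genes the range of the lsNM-Rs overlapped that of the ssNM-Rs, and the share of all genes for which this holds was not computed.

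**Figure D2:**
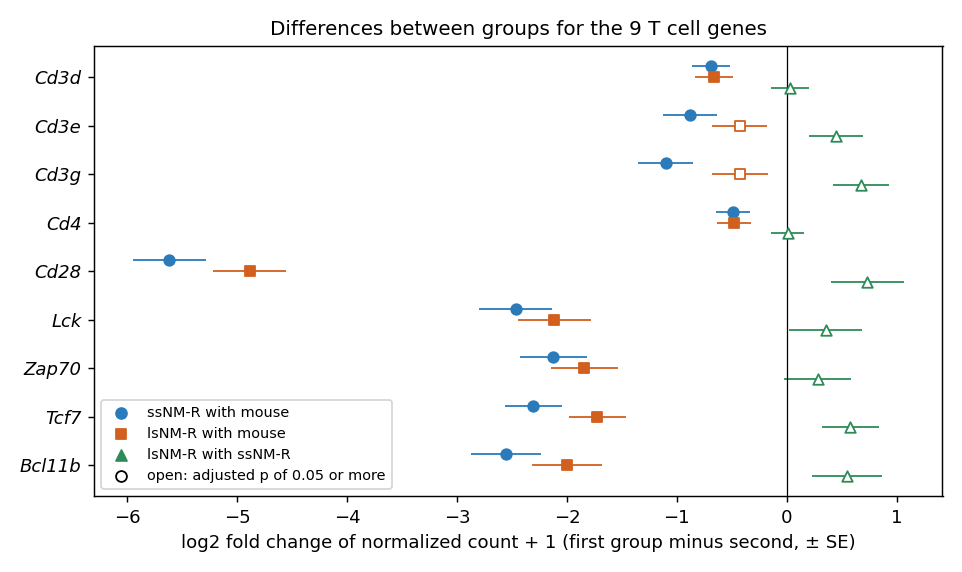
Log2 fold change of the normalized count plus 1 (horizontal axis, ± SE from limma) for the 9 genes for each NM-R cohort with mouse and for lsNM-R with ssNM-R (n = 3 spleens per group), with open symbols for an adjusted p of 0.05 or more. The CD3 chains and Cd4 lie closest to 0 against mice, Cd28 lies at -5.62 and -4.88, and all values between the cohorts are open.

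To ask whether the genes kept their proportions, each was set against Cd3e of the same spleen, a ratio on which the scaling of the library acts only through the added 1. The ratios of Cd3d, Cd3g and Cd4 to Cd3e differed between the species by -0.02, -0.11 and 0.17 on the log2 scale (2-sided exact permutation p = 0.976, 0.310 and 0.452). These differences were smaller than the SD among the NM-R spleens (0.29, 0.16 and 0.35). For Cd3g and Cd4 they exceeded the SD among the mice (0.055 and 0.12). The other 5 ratios were lower in every NM-R than in every mouse, with differences of -1.33 for Zap70, -1.36 for Tcf7, -1.62 for Bcl11b, -1.64 for Lck and -4.60 for Cd28. For each of these 5 the exact permutation p was 0.0238, the smallest that 3 mice and 6 NM-Rs allow (0.0381 with Benjamini-Hochberg adjustment over the 8 ratios). Without a mouse no ratio could pass, since the smallest exact permutation p is then 0.0714. With any 1 NM-R left out the 5 ratios had the smallest exact permutation p of that design, 0.0357, and their calls were lost at 0.0571 after the adjustment. Relative to those of Cd3e, the counts of Lck, Zap70, Tcf7, Bcl11b and above all Cd28 were thus lower in NM-R, while no difference was found for Cd4, Cd3d and Cd3g. A ratio takes out nearly all of the scaling of the library but not the gene models and lengths, which differ between the species. Such ratios were computed for these genes only, so no share of all genes stands beside the 5 of 8. Of all genes, 38.8% were called lower and 39.7% higher in NM-R with mouse by limma.

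The genes were also set against Ptprc, which codes for CD45, the phosphatase carried by nearly all leukocytes. Ptprc had 22725, 20669 and 20699 normalized counts in the mice, 3731, 5801 and 5628 in the ssNM-Rs and 6610, 5406 and 5891 in the lsNM-Rs (log2 fold change of NM-R with mouse -1.98, ± 0.15 SE, limma adjusted p = 9.71e-07). Ptprc thus differed about as much as the median of the 9 genes, and their ratios to it took both directions. The ratio of Cd3d rose by 1.30 on the log2 scale, that of Cd3e by 1.32, that of Cd3g by 1.21 and that of Cd4 by 1.49, and that of Cd28 differed by -3.28. In each of these 5 the species did not overlap (2-sided exact permutation p = 0.0238, and 0.0429 with Benjamini-Hochberg adjustment over the 9 ratios). As for Cd3e, the share of all genes with such a ratio was not computed. The ratios of Zap70, Tcf7, Bcl11b and Lck differed by -0.0065, -0.04, -0.30 and -0.32 (exact permutation p = 1, 0.857, 0.405 and 0.262). These differences were smaller than the SD among the NM-R spleens (0.34, 0.37, 0.48 and 0.41). For Bcl11b and Lck they exceeded the SD among the mice (0.11 and 0.13).

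**Figure D3:**
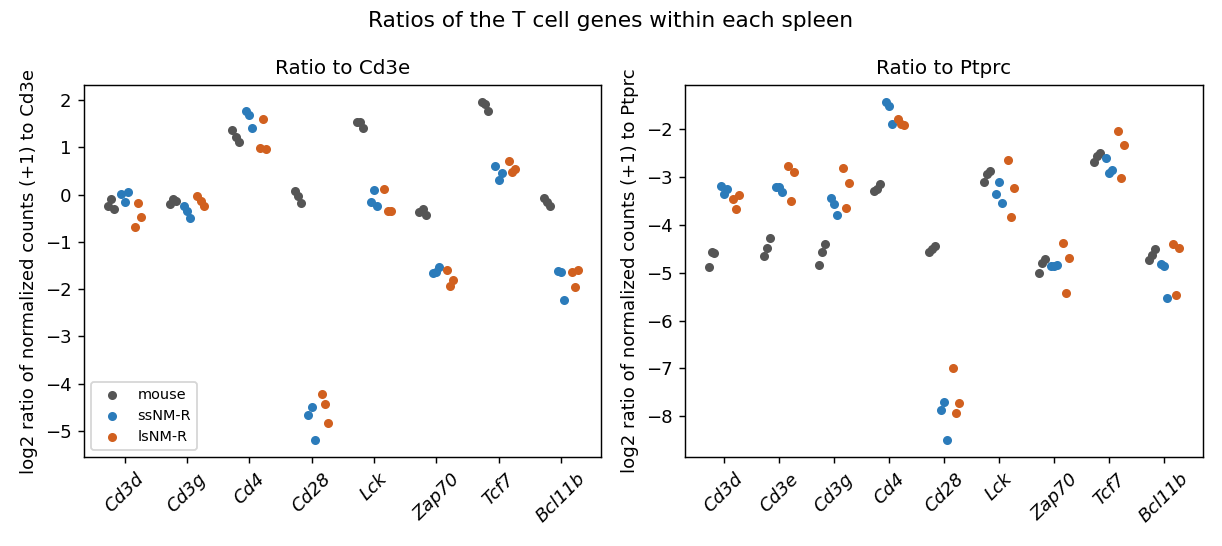
Log2 ratio of each gene to Cd3e (left) and to Ptprc (right) in each of the 9 spleens, from normalized counts plus 1, with mice, ssNM-Rs and lsNM-Rs as points. Against Cd3e, the points of the species are mixed or close for Cd3d, Cd3g and Cd4 and separate for the other 5 genes, and against Ptprc the CD3 chains and Cd4 are higher in NM-R and Cd28 lower.

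Over the 6 NM-R spleens the 9 genes rose and fell together. The spleen of lsNM-R 1 had the highest value for 8 of 9 genes and ssNM-R 3 for the other, Cd4, while ssNM-R 2 had the lowest value for 6 genes, ssNM-R 6 for 2 and lsNM-R 4 for 1. On the mean of the centred log2 values, lsNM-R 1 stood at 0.71 and lsNM-R 5 at 0.27, followed by ssNM-R 3 at 0.10, ssNM-R 6 at -0.21, lsNM-R 4 at -0.37 and ssNM-R 2 at -0.50. The order thus mixed the cohorts. It also mixed the library depths, since the shallower NM-R libraries, of 8985705 reads at most, are those of lsNM-R 1, ssNM-R 3 and ssNM-R 2. By age it was less mixed, as the oldest NM-Rs, ssNM-R 2 (30 months) and lsNM-R 4 (29 months), stood lowest. The others were of 23 to 26 months, and the part of age in the order was not tested.

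The agreement is given as a description over 6 spleens that share the scaling of the table. Pearson's r of each gene with the mean of the other 8 had a median of 0.94 and was lowest for Cd4 (0.73) and Cd3d (0.75) and highest for Cd3e (0.98) and Lck (0.97). Spearman's rho had a median of 0.94 and a range from 0.77 to 1. Across 9577 other genes averaging 50 normalized counts or more in NM-R, r with the mean of the 9 genes had a median of -0.02, and 534 of them (5.58%) reached the r of Cd4. After the mean of each cohort was taken out the median r of the 9 genes was 0.94. Without lsNM-R 1 and ssNM-R 2, the spleens farthest from the median, it was 0.80, with 0.45 for Cd4, 0.60 for Cd3d and Cd28 and 0.96 for Bcl11b. These 2 spleens are the ends of the order that r is computed with. Leaving them out narrows the range, so a lower r does not show that a gene's agreement rested on them.

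The spread among NM-R spleens differed between the genes. Cd3d and Cd4 varied 1.47-fold from the lowest to the highest NM-R, which is the median of 9585 genes averaging 50 or more in NM-R (1.47). The other 7 genes varied between 2.39-fold for Cd3e and 3.50-fold for Cd28. Much of this came from lsNM-R 1, without which Cd28 varied 1.86-fold, Lck 1.85-fold (2.90-fold with it) and the 7 genes between 1.81-fold and 2.18-fold, with a median of 1.42 over the genes averaging 50 or more. Among the mice, which are only 3 and so tend to a smaller ratio, it lay between 1.04 for Cd28 and Tcf7 and 1.24 for Cd3g.

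The 5 other genes most like the mean of the 9 over the NM-R spleens were Gimap6, Baiap3, Sv2a, Gpr183 and Znf879. Gimap6 belongs to a family of GTPases of lymphocytes and Gpr183 codes for the oxysterol receptor EBI2, which guides lymphocytes in the spleen. Their r lay between 0.98 for Znf879 and 0.99 for Gimap6 with a rho of 1 in each, and without the same 2 spleens r was 0.97 to 0.99. High values follow from the choice of the highest r among 9577 genes over 6 spleens. The spleens kept for the last values took part in that choice, so they are no separate check. Gimap6 had a mean of 772 normalized counts in NM-R and 5015 in the mice, and Gpr183 135 and 933. The means lay closer together for Baiap3 (180 and 324) and Sv2a (55.1 and 76.3). Znf879 went the other way between the species, with 129 in NM-R and 9.28 in mice.

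Markers of other cells of the spleen were set beside this order. Of the 11 B cell markers in the table, 10 were highest in lsNM-R 1, and 8 were lowest in ssNM-R 2, the spleens at the ends of the order of the 9 T cell genes. The summed normalized counts of the B cell markers were 3882, 6855 and 4781 in ssNM-Rs 2, 3 and 6 and 9164, 4494 and 5657 in lsNM-Rs 1, 4 and 5, compared to 67872, 67485 and 69000.0 in the mice. Among them Cd22 or Cd37 had the highest count, which was not divided by gene length, and none was at 0. The 9 T cell genes summed to 3791, 5576, 4670.1, 7755, 4095 and 5898 in the NM-Rs in this order, and to 13465, 13484 and 14352 in mice. Plasma cell markers did not follow, being highest in ssNM-R 3 for 5 of 6 genes (sums of 5477, 16070 and 6586 in the ssNM-Rs and 8089, 12561 and 6226 in the lsNM-Rs). Erythroid markers summed to 222633, 167561 and 145007 in the ssNM-Rs and 168237, 205145 and 142697 in the lsNM-Rs, against 24294, 54841 and 68815 in the mice. Among them Slc4a1 or Alas2 had the highest count, which was not divided by gene length. Of the 9 erythroid markers 5 were highest in lsNM-R 4 and 4 in ssNM-R 2, the lowest spleens in the order of the T cell genes. They were lowest in ssNM-R 6 for 4, in lsNM-R 5 for 4 and in lsNM-R 1 for 1. The markers of the other cell types had a highest spleen that depended on the measure. From the mean of the centred log2 values to the sum, the highest spleen changed from lsNM-R 1 to ssNM-R 3 for macrophage markers, from lsNM-R 1 to lsNM-R 5 for NK cell and dendritic cell markers, and from lsNM-R 5 to lsNM-R 1 for granulocyte markers. The part of these cell types in the values of the T cell genes was not tested.

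**Figure D4:**
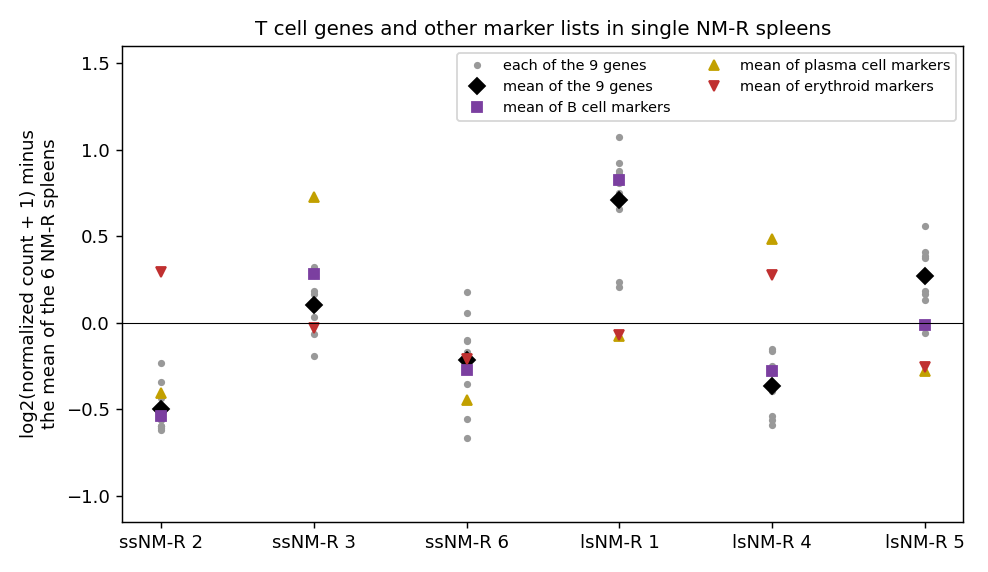
Log2 of the normalized count plus 1 in each NM-R spleen minus the mean of the 6 NM-R spleens (vertical axis), for each of the 9 T cell genes and for the means of the 9 genes and of the B cell, plasma cell and erythroid marker lists. The mean of the 9 genes is 0.71 and that of the B cell markers 0.82 in lsNM-R 1, where the plasma cell markers are at -0.08 and the erythroid markers at -0.07.

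Other genes of the T cell receptor and its pathway were also lower in NM-R, with the mean of both cohorts compared to mice and limma adjusted p under 0.05 as the threshold. The counts of this list and those that follow are to be read against all genes, of which 38.8% were called lower and 39.7% higher. Of 12 further receptor chains and partners, 5 were in the table and 5 were lower, with a median log2 fold change of -2.12. They include Cd247, the zeta chain (881 ± 35.6 normalized counts in 3 mice, 137 ± 57.9 in 6 NM-Rs, log2 fold change -2.77), the adhesion receptor Cd2 (1558 ± 90.5 and 78.8 ± 19.2, -4.32) and the inhibitory receptor Cd5 (-2.12). The constant chains Trac, Trbc1, Trbc2 and Trdc, the co-receptor genes Cd8a and Cd8b1, and Ptcra are not listed under these symbols, so that the receptor chains themselves and CD8 T cells were not analysed here.

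Of 31 genes of receptor signalling in the table, 27 were lower (38.8% of all genes), 0 higher and 4 not called, with a median of -1.85. The lowest were Malt1 (2918 ± 169 in the mice and 115 ± 29.0 in the NM-Rs, log2 fold change -4.70), which codes for the paracaspase that leads to NF-κB, the phosphatase gene Ptpn22 (-4.37) and the adaptor gene Sh2d1a (-4.31). Of these, Sh2d1a was near the limit of detection in NM-R (mean of 6.1 normalized counts, 2.5 to 9.9). The 4 not called were Plcg1 (0.09), Ubash3b (-0.0099), Stim1 (-0.06) and Orai1 (-0.12), which were named after their values were seen. Fyn, Nck1, Themis, Fyb and Ubash3a are not listed. Between the cohorts limma called 0 of the 31 and 10 had an unadjusted limma p under 0.05 (8.79% of all genes), and edgeR also called 0. DESeq2 called 2 of the 31 (0.440% of all genes), Malt1 and Prkcq, higher in lsNM-R (0.66 and 0.80 on the log2 scale, DESeq2 adjusted p = 0.0133 for each).

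Of 10 costimulation and checkpoint receptors in the table, 8 were lower and 1, Pdcd1, was higher in NM-R, with a median of -3.77. Btla had 5874 ± 428 normalized counts in the mice and 68.6 ± 29.0 in the NM-Rs (log2 fold change -6.49), and is also carried by B cells. Tnfrsf9 (-5.37) and Tigit (-5.16) were near the limit of detection in NM-R, with means of 3.31 and 2.40 normalized counts. Pdcd1, which codes for the inhibitory receptor PD-1 of the CD28 family, had 72.7 ± 13.9 in the mice, 196 ± 35.7 in the ssNM-Rs and 206 ± 23.3 in the lsNM-Rs (log2 fold change of NM-R with mouse 1.46, limma adjusted p = 2.66e-05). Lag3 was not called (-0.41), and Cd27, Tnfrsf18, Havcr2, Cd96, Slamf1 and Slamf6 are not listed. All 5 ligand and MHC class II genes in the table were lower, with a median of -2.72 and a range from -3.09 to -0.66, among them Cd274 (-3.09), the CD28 ligand gene Cd80 (229 ± 20.4 and 30.7 ± 18.9, -3.02) and Ciita (-2.72), the master regulator of MHC class II. The other CD28 ligand gene, Cd86, named after its values were seen, had higher counts, not divided by gene length, and differed least (1555 ± 102.3 and 989 ± 111.5, -0.66). The class II genes H2-Aa, H2-Ab1, H2-Eb1, H2-DMa and H2-DMb1, as well as Icosl and Pdcd1lg2, are not listed.

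Of 19 transcription factors of the T lineage in the table, 15 were lower, 2 higher and 2 not called, with a median of -1.39. The lowest were Bach2 (2279.7 ± 97.0 in the mice and 71.9 ± 35.6 in the NM-Rs, log2 fold change -5.12), Eomes (-4.18) and Ikzf3 (-4.14), and Bach2 and Ikzf3 also act in B cells. Zbtb16, which codes for PLZF of innate-like lymphocytes, was higher (63.9 ± 8.95 and 235 ± 101, limma log2 fold change 1.76 with adjusted p = 4.17e-04), and so was Tcf3, the gene of the E proteins E12 and E47 (0.56). Runx1 (-0.16) and Runx3 (-0.96) were not called, and Satb1, Klf2 and Tcf12 are not listed. All 11 receptors of T cell survival and trafficking in the table were lower, with a median of -2.18, led by Cxcr3 (-4.14), the IL-2 receptor chain gene Il2ra (-3.58) and S1pr1 (3282 ± 162 and 448 ± 119.7, -2.91), which lets T cells leave lymphoid organs. Il2rg, Ccr6 and Cxcr6 are not listed.

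The markers of other lymphoid cells were lower too. All 11 B cell markers in the table were lower in NM-R with a median log2 fold change of -3.68, among them Pax5 (-5.64) and Ebf1 (-4.53), and Fcer2a is not listed. All 3 NK cell markers in the table were lower (Gzma -3.91, Nkg7 -3.23 and Prf1 -2.05), and Ncr1, Klrb1c, Klrk1, Klrd1, Gzmb, Klre1 and Klri2 are not listed. Of 6 plasma cell markers 4 were lower (Irf4 -3.17, Mzb1 -2.89, Jchain -2.53), with a median of -2.12, Xbp1 (-0.22) and Prdm1 (-0.26) were not called and Sdc1 is not listed. All 7 dendritic cell markers in the table were lower, with a median of -2.93 (Xcr1 -5.03, Itgax -4.83, Clec9a -3.61), and Siglech is not listed.

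Macrophage markers were called in both directions about as often as all genes, of which 38.8% were lower and 39.7% higher. Of 10 macrophage markers 5 were lower (Adgre1 -5.31, Marco -3.79, Cd163 -3.29), 4 higher (Siglec1 2.58, C1qa 1.78, C1qc 1.19) and Vcam1 (-0.20) was not called, with a median of -0.44. Cd68 and Spic are not listed. Granulocyte and erythroid markers were mostly higher. Of 8 granulocyte markers 6 were higher (39.7% of all genes; Padi4 4.59, Ltf 2.61, Mpo 2.08) and 2 lower (Cxcr2 -1.60 and Csf3r -0.53), with a median of 1.72. The call of Csf3r was lost without mouse 1 (-0.39, limma adjusted p = 0.0547) and with only the compared groups in the fit (limma adjusted p = 0.1003), and Elane, Prtn3, Camp and S100a8 are not listed. All 9 erythroid markers in the table were higher (39.7% of all genes), with a median of 2.92 (Epor 3.63, Tal1 3.36, Epb42 3.25). The size factors are set over all genes of both species, and the part of the higher granulocyte and erythroid counts in the lower counts of the T cell genes was not tested. The ratios to Cd3e and to Ptprc depend on the size factors only through the 1 added to each count, which weighs most for a low gene such as Cd28 in NM-R.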

How the data were processed

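Spleens of 3 mice and 6 NM-Rs were sequenced, with 1 library for each. The authors aligned the reads with STAR 2.5.3a to mm9 or the NM-R genome hetGla2, counted them per gene with HTSeq 0.10.0, named NM-R genes after their mouse homologues and scaled each library by its DESeq2 size factor. The signal values they deposited are these normalized counts, not divided by gene length. The sequencer, the library kit and the maker of the RNA kit differ between the methods and the labels. NM-R genes without a mouse homologue symbol, or with a model that covers less of the transcript, would be missing or low in such a table.

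Multiplied by the size factor of the library, 100% of the values came out as whole reads (within 0.01 reads). A count of 0 allows up to 3 reads, between 1.88 and 4.50 normalized counts, and these limits cover counting error only. Log2(normalized count + 1) was fitted in limma 3.58.1 (R 4.3.3) with 1 mean per group over all 9 spleens, a trended variance and 2-sided tests, adjusted by Benjamini-Hochberg over all 12946 genes, with a threshold of 0.05. Ratios were tested by exact permutation over the 84 relabellings of 3 and 6 spleens (scipy 1.17.1). The agreement of the genes carries no p because its score is made from them. The count tests edgeR 4.0.16 and DESeq2 1.42.0 on the recovered reads were alternatives, and called 10111 and 10024 genes in NM-R with mouse. The fits were tested on simulated data. Mouse positions, exon lengths and promoters come from mm9 with GENCODE vM1.

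The 9 genes and the gene lists were chosen with earlier results of these data known. Named genes, of which a few are left out of the text, are the 9, the 3 highest and 3 lowest log2 fold changes of each list among called genes with a group mean of at least 10, all listed genes absent from the table, and the 5 genes with a mean of at least 50 in NM-R most correlated with the mean of the 9. Others are said to be chosen after their values were seen, which also holds for Xbp1, Prdm1, Lag3, Runx1, Runx3, Vcam1 and Prkcq, and for the genes with the highest counts in the marker sums. Alternatives were other pseudocounts, scalings, filters, variance models, sample sets and tests, a replicate block, a depth class term and each spleen left out.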

Additional observations from a re-analysis of the deposited data

Results flagged for a closer look

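Each of the 9 genes was examined over the 6 NM-R spleens for a spleen far from the others. The rule was the gap to its neighbour as a share of the whole range of normalized counts. It was not applied to the log2 values that the fits used. One value stood apart, that of Cd28 in lsNM-R 1, with 50.9 normalized counts (36 reads) against 14.5 to 27.0 in the other NM-Rs, a gap of 0.656 of the range. Chance marks about 1 in 20 such sets if the values are normally distributed, which was not tested. The 9 genes are also not independent of each other. Without lsNM-R 1, Cd28 in lsNM-R with mouse kept its call.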

How the results depend on the processing

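In all, 194 results gave 4078 alternative values. All 9 genes were called lower in NM-R with mouse under every pseudocount, scaling, filter, variance model and count test. The number was 8 without mouse 3 and 7 with the depth class as a term. Over all genes 4727 and 4875 were then called lower, against 5024 in the main fit. In ssNM-R with mouse the number was 8 without ssNM-R 2 (4656 of all genes, and 4849 in the main fit). In lsNM-R with mouse it lay between 6, without lsNM-R 4 and with the depth class as a term, and 9, without lsNM-R 1. The fit with the numbers of the animals as a block is left aside here. Over all genes 4527, 4515 and 4614 were called lower in these 3 settings, against 4788 in the main fit. In lsNM-R with ssNM-R the number of the 9 genes called was 0 in all. The numbers are not known to pair animals (correlations over genes -0.0045 to 0.0101). As a block, a number held by 1 animal alone takes that animal out, so lsNM-R with mouse became lsNM-R 1 against mouse 1. The log2 fold changes of Cd3e and Cd3g were then 0.09499 and 0.2585 (limma), and those of Cd3d and Cd4 were -0.35 and -0.29.

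Between the cohorts Cd4 turned to -0.01183 in edgeR, -0.002653 in DESeq2 and -0.003008 with the 6 NM-Rs alone. With single spleens left out, its log2 fold change in lsNM-R with ssNM-R lay between -0.1081 and 0.1689. The same range was -0.1326 to 0.185 for Cd3d, -0.01881 to 0.7239 for Lck and -0.02199 to 0.6487 for Zap70, with the lower end without lsNM-R 1 for Cd4, Lck and Zap70 and without ssNM-R 2 for Cd3d.

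The ratios that differed between the species, 5 of 8 to Cd3e and 5 of 9 to Ptprc, became 0 and 0 without any single spleen. Without a mouse no other outcome was possible (smallest exact permutation p 0.0714). Without an NM-R the same 5 and 5 had an exact permutation p of 0.0357, and Benjamini-Hochberg adjustment raised it to 0.0571 and 0.0643. The median r of the 9 genes lay between 0.868 without lsNM-R 1 and 0.962 without ssNM-R 6. Of the gene lists, macrophage markers called lower in lsNM-R with mouse moved from 3 to 5 without lsNM-R 1. They did so too without ssNM-R 6 and with only the compared groups. Granulocyte markers called lower in NM-R with mouse moved from 2 to 1, as Csf3r lost its call without mouse 1 (-0.39, limma adjusted p = 0.0547) and with only the compared groups (-0.53, limma adjusted p = 0.1003). In lsNM-R with ssNM-R DESeq2 called 2 receptor signalling genes and 1 granulocyte marker higher, where limma called 0.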
